A study of Tetradesmus deserticola with 10 samples.

Results

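The 20783 assembled genes of the desert green alga Tetradesmus deserticola included 101 well-counted genes of limited change through drying and rewetting. Their stage means in the deposited expression values lay less than 2 times apart. These genes were chosen by 2 criteria. A gene's counts, summed over the 10 libraries, had to reach 500, and its highest stage mean in the deposited TMM-normalized signal had to lie below 2 times its lowest. The count minimum was met by 1932 genes, and 101 of these (5.23%) met the fold limit. The choice was made from the values described here, so the steadiness of these genes is a description and not a test. "Steady" is used for them only in the sense of these 2 criteria, since their stage means were not level under library totals and the libraries of a stage often differed.

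The cells were of strain Sni-2 (named Acutodesmus deserticola by the submitters), grown in liquid culture for 6 weeks and spotted as 40 µL drops on cover glasses. Hydrated drops were taken at once, Early drops after 2.5 h of drying, when 25% of the volume was gone, and Late drops after 7.5 h, when 60% was gone. Dry spots were fully flattened and were taken about 24 h after the start, after 11 more hours in the drying chamber, and Rehydrated spots 1 h after water was returned. Each stage had 2 libraries, of unstated relation to separate cultures, and there was no wet control matched in time, so that drying and elapsed time cannot be told apart. Libraries held between 644705 and 1917825 counts, fewest in the Rehydrated stage. In every stage the 2 libraries differed by more than sampling noise, with a chi-square per degree of freedom of 8.32 or more. These are relative measures from bulk cells, in which fewer cells and less RNA per cell cannot be told apart.

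Algae that tolerate desiccation lose most of their cell water, stop metabolism and resume it after rewetting. Transcripts that hold a level share of the RNA pool through such a change are of use as internal references against which other transcripts are read. Such a level is always relative to a scale. TMM (trimmed mean of M values) sets that scale so that the bulk of genes centres on no change between libraries, whereas library totals, given here as CPM (a gene's counts scaled to a fixed library sum), set it by the sum of all reads, in which a few abundant transcripts weigh heavily. No annotation accompanies the assembly identifiers, so the genes are given without name, function or sequence, and the labelled organism could not be checked against marker genes.

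Steady genes were rare among well-counted genes. Their ratio of highest to lowest stage mean ran from 1.26 to 1.997 with a median of 1.77, and it was below 1.5 in 22 and below 1.3 in 3 of them. Over all 1932 genes the median ratio was 6.60, and 345 genes stayed below 3 times. The share of steady genes varied little with depth. It was 5.86% of the 836 genes with 500 to under 1000 counts, 5.09% of 452 genes with 1000 to under 2000, 3.68% of 299 genes with 2000 to under 5000 and 5.22% of 345 genes with 5000 or more.

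**Figure D1:**
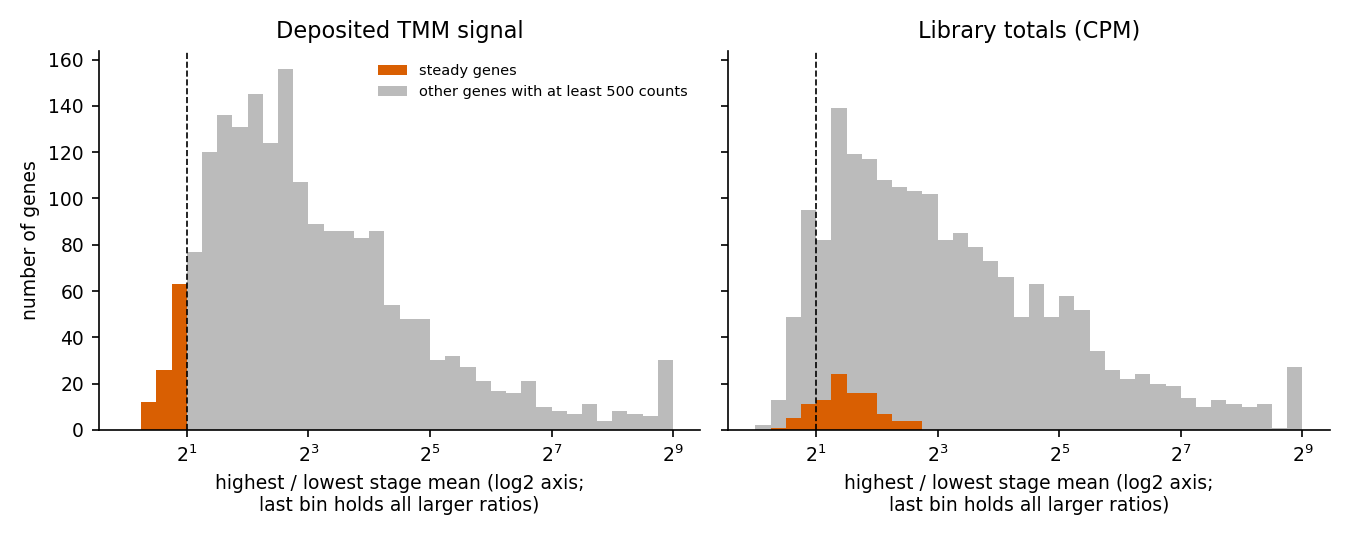
Number of genes with at least 500 counts by the ratio of highest to lowest stage mean (log2 axis), in the deposited signal (left) and in CPM of library totals (right); steady genes are orange, other genes grey and the dashed line marks a ratio of 2. On the left the steady genes are by definition all genes below 2, and on the right only 17 of the 101 lie there.

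The steadiest gene over the stages was TRINITY_DN184488_c5_g1, with a ratio of 1.26. Its signal was 27.4 and 20.4 in the Hydrated libraries, 27.2 and 18.5 in Early, 24.3 and 22.1 in Late, 23.0 and 15.1 in Dry, and 20.2 and 23.1 in Rehydrated. The libraries of the stages overlapped throughout, and the difference between the 2 Early libraries was larger than that between any pair of stage means. TRINITY_DN182735_c6_g1 had the narrowest range over single libraries, a ratio of 1.499 between the highest and the lowest of the 10. It stood at 29.6 and 30.1 in Hydrated, 26.7 and 25.5 in Early, 24.1 and 22.0 in Late, 31.3 and 28.8 in Dry, and 20.9 and 27.1 in Rehydrated. The Hydrated and Dry libraries lay above those of all other stages, with means of 29.9 ± 0.358 (SD, n = 2) in Hydrated and 23.0 ± 1.45 in Late, the lowest. TRINITY_DN179923_c0_g1 followed with 1.67 over single libraries and 1.28 over stages. Its signal was 29.5 and 27.0 in Hydrated, 37.9 and 26.3 in Early, 25.0 and 27.3 in Late, 34.9 and 30.2 in Dry, and 22.8 and 28.03 in Rehydrated. Every stage overlapped with Early, whose 2 libraries lay farthest apart. TRINITY_DN176285_c1_g1, with a ratio of 1.28 over stages, had means between 38.6 ± 8.74 in Dry and 49.3 ± 20.5 in Rehydrated, but its single libraries spanned a ratio of 2.33.

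**Figure D2:**
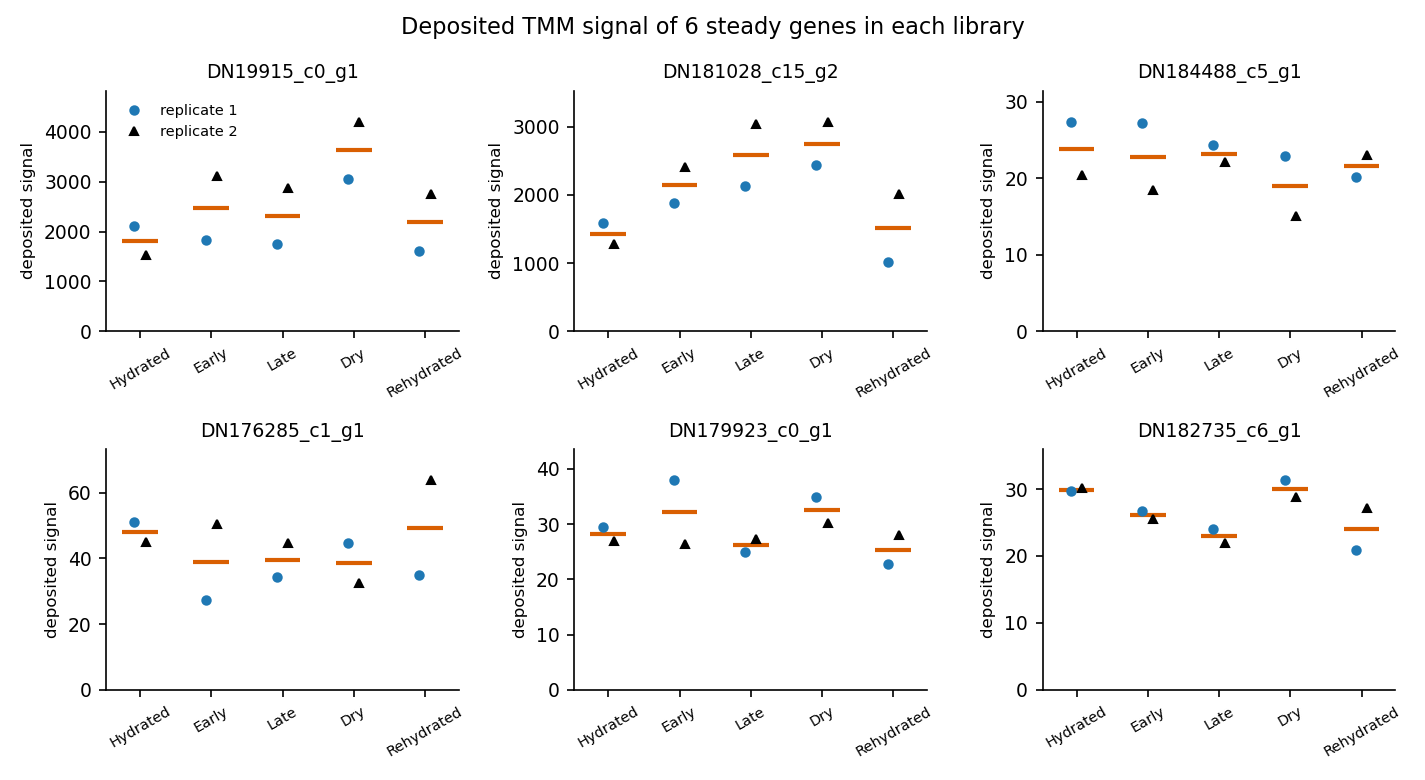
Deposited TMM signal (linear axis from 0) of the 2 most abundant steady genes and the 4 with the lowest ratio of stage means; circles are replicate 1, triangles replicate 2, and bars the mean of the 2 libraries. In the 2 abundant genes replicate 2 lies above replicate 1 in every stage except Hydrated, and TRINITY_DN182735_c6_g1 stays between 20.9 and 31.3.

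Averaging over the 2 libraries hid much of the variation. Over the 10 single libraries the median ratio of highest to lowest signal among steady genes was 2.61, with quartiles of 2.30 and 3.08. Only 10 of the 101 stayed below 2, and 70 stayed below 3. Any gene below 2 over single libraries meets the fold limit by construction, so these 10 are also all such genes among the 1932 (0.518%). They held between 541 and 4359 counts, and their mean signal lay between 22.1 and 178. The median absolute log2 difference between the 2 libraries of a stage was 0.31 in Hydrated and 0.26 in Early, close to the 0.32 and 0.33 of the other 1831 genes. It was 0.31 in Late, against 0.36 for the others, 0.57 in Dry, against 0.42, and 0.69 in Rehydrated, against 0.80. A difference of 2 times or more between the libraries of a stage occurred in 1 steady gene in Hydrated and 4 in Early, but in 21 in Late, 20 in Dry and 29 in Rehydrated. Such differences were not counted over the other genes. At the other end TRINITY_DN217889_c0_g2, named here after its values were seen, was listed at 0 in Dry replicate 1 and at 194 in Dry replicate 2. It also stood at 20.5 and 149 in the Late libraries and at 16.1 and 266 in the Rehydrated libraries, so its inclusion rests on means of very unequal libraries. It was the only steady gene with 0 counts in any library, and its counts were not whole, which marks reads that the authors' counting divided among similar sequences.

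The same measure was then read by replicate number, with genes chosen in 1 library of each stage and read in the other. The count minimum still used all 10 libraries, and the values are a description. Of the 62 genes that stayed below 2 over the 5 replicate 1 libraries, 19 (30.6%) also did over the 5 replicate 2 libraries, where 4.45% of all 1932 genes did. Their median ratio in replicate 2 was 2.49 (quartiles 1.80 and 3.28), against 6.52 over all 1932. In the other direction 86 genes chosen in replicate 2 had a median ratio of 2.69 in replicate 1, against 8.40 over all, and 22.1% stayed below 2, against 3.21%. Below 3 times were 67.7% and 59.3% of the chosen genes, against 15.8% and 12.01% of all. Genes picked as level in one series of libraries were flatter than the bulk in the other, though most exceeded the fold limit there. Genes below 2 in both replicates, 19 in number, meet the limit on stage means by construction. The number meeting the criteria was between 66 and 104 when each library was left out in turn. It was 66 both without Hydrated replicate 1 and without Rehydrated replicate 2, and only 18 of the 101 genes met the criteria in all 10 of these settings. Here the counts were summed over the libraries kept and still had to reach 500. Since 49 of the 101 genes held under 1000 counts in all, a gene could be lost through the count minimum as well as the fold limit. The 2 were not separated.

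**Figure D3:**
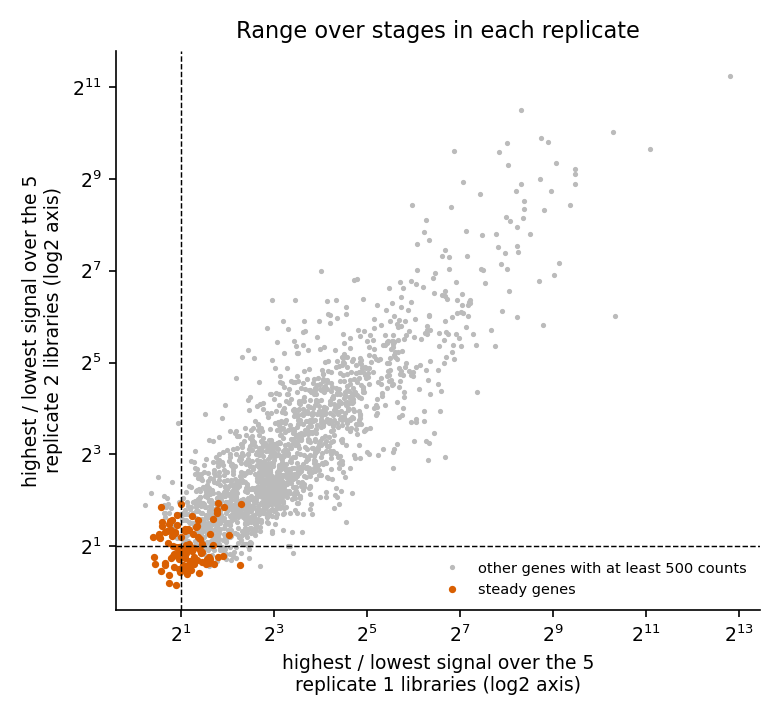
Ratio of highest to lowest deposited signal over the 5 replicate 1 libraries against the same ratio over the 5 replicate 2 libraries (both log2 axes), for genes with at least 500 counts; 66 genes listed at 0 in some library, 1 of them a steady gene, are not drawn. Steady genes (orange) gather around the dashed lines at 2, and 19 lie below both.

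Within the limit of 2, the profiles were of several shapes. Of the 101 genes, 35 had their highest mean in Dry, 20 had it in Early and 17 in Late, and 15 peaked in Rehydrated and 14 in Hydrated. Hydrated was the lowest stage for 34 genes and Rehydrated for 33, ahead of Dry with 17, Late with 13 and Early with 4. The most frequent shape, with 21 genes, was highest in Dry and lowest in Hydrated, followed by 11 genes highest in Early and lowest in Rehydrated. Such combined shapes were not counted over the other genes, so they are not read as particular to the steady genes. They rest on means of 2 libraries that often differed. Among the 1831 other genes with the count minimum, 39.8% were highest in Dry and 33.1% were lowest in Rehydrated. The steady genes' shares of 34.7% and 32.7% were close to these. Hydrated was the lowest stage for 33.7% of steady genes and 18.1% of the others. These shares were not tested, since genes are not independent replicates.

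The median signal of the steady genes was 46.8 and 42.9 in the Hydrated libraries, 45.5 and 49.6 in Early, 49.1 and 52.5 in Late, 54.6 and 40.8 in Dry, and 34.6 and 50.4 in Rehydrated. The stage means of these medians lay between 42.5 ± 11.2 in Rehydrated and 50.8 ± 2.43 in Late, a smaller difference than that between the 2 Rehydrated libraries. Relative to Hydrated, the median log2 ratio of stage means was 0.20 for Early and 0.10 for Late, then 0.15 for Dry and 0.03 for Rehydrated. The same medians over all 1932 genes were 0.30, 0.19, 0.43 and -0.57.

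Under library totals the same genes were not level. Their median CPM was 97.0 and 94.4 in the Hydrated libraries, 87.7 and 62.9 in Early, 74.9 and 55.8 in Late, 47.5 and 34.5 in Dry, and 99.3 and 94.4 in Rehydrated. The lowest values were those of the 2 Dry libraries, and the Rehydrated values lay close to the Hydrated ones. The ratio of highest to lowest stage mean rose to a median of 2.74 with quartiles of 2.14 and 3.52 and a maximum of 6.44. It stayed below 2 in 17 of the 101 (16.8%), against 8.23% of the 1932 genes, and it reached 4 or more in 15. Without Dry replicate 2 the 17 became 26. Dry was the lowest stage for 92 genes and Late for 9, while the highest was Rehydrated for 54 and Hydrated for 41. These stages were not counted over the other genes, so the counts are not read as particular to the steady genes. The steady genes' median log2 ratio of Dry to Hydrated was -1.22, against -0.94 over all 1932 genes, and 100 of the 101 genes had a lower mean in Dry, as did 1316 of the 1932. From Dry to Rehydrated the median log2 ratio was 1.27, against 0.85 over all 1932 genes, and all 101 had a higher mean in Rehydrated, as did 1380 of the 1932. The deposited signal implied library factors of 1.33 and 1.45 in Hydrated, 0.548 and 0.517 in Dry, and 2.01 and 1.22 in Rehydrated. A gene chosen as level in the signal has CPM that follow these factors. The fall in Dry and the rise after it are therefore largely fixed by the choice.

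Of the 4 genes that were steadiest in the signal, TRINITY_DN179923_c0_g1 kept a ratio of 1.99 in CPM and the other 3 were well above the limit. TRINITY_DN182735_c6_g1 had 86.0 and 88.7 CPM in the Hydrated libraries, 65.5 and 45.7 in Early, 52.5 and 33.5 in Late, 25.5 and 24.5 in Dry, and 74.5 and 67.7 in Rehydrated. Its stage means spanned a ratio of 3.499, and neither Dry library overlapped with any other. TRINITY_DN184488_c5_g1 had a mean of 76.7 ± 10.3 CPM in Hydrated, 23.2 ± 7.09 in Dry and 81.0 ± 17.05 in Rehydrated, a ratio of 3.49. TRINITY_DN176285_c1_g1 had 71.4 ± 2.24, 22.9 ± 6.60 and 86.4 ± 0.686 CPM in the same stages, a ratio of 3.78. Gene length enters the signal but not CPM. The length implied by counts per unit of signal differed between stages by less than 1.2 times in 84 of the 101 genes, with a median of 1.07. Most of the genes named here were exceptions. This ratio was 1.36 in TRINITY_DN182735_c6_g1 and in TRINITY_DN179923_c0_g1, 1.24 in TRINITY_DN176285_c1_g1 and 1.05 in TRINITY_DN184488_c5_g1. The part of length in their steadiness in the signal was not tested.

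**Figure D4:**
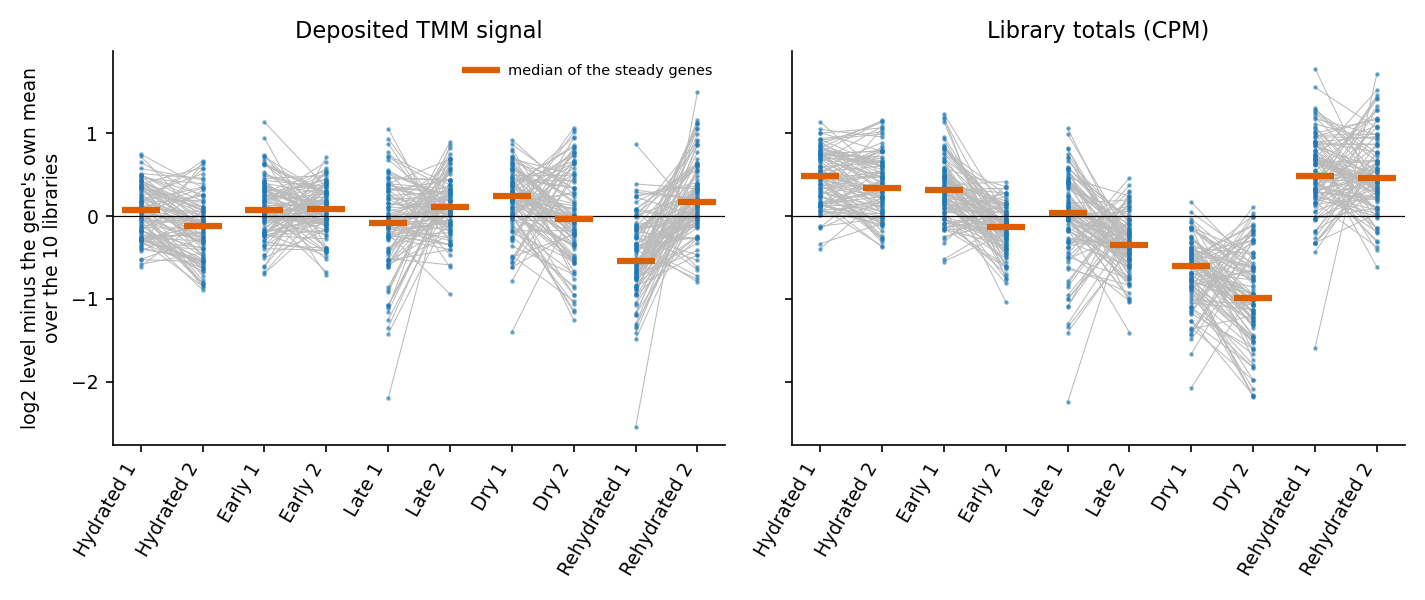
Log2 level of each steady gene minus its own mean over the 10 libraries, in the deposited TMM signal (left) and in CPM of library totals (right); points are genes, grey lines join the 2 libraries of a stage, orange bars are medians and a single 0 value is left out. On the left the lowest median is that of Rehydrated replicate 1, and on the right the Dry libraries have the lowest medians.

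The steady genes together held 4.45% and 3.61% of the counts in the Hydrated libraries, 4.25% and 3.46% in Early, 2.83% and 3.48% in Late, 2.10% and 2.77% in Dry, and 3.77% and 5.58% in Rehydrated. This share is the sum of the genes' CPM, so it lies on the scale of library totals and repeats the fall in Dry given above. The 3 steady genes with the largest sums of counts alone held 1.55% and 1.16% in Hydrated, 0.810% and 1.11% in Dry, and 1.07% and 1.76% in Rehydrated. For all steady genes together, the stage means of the share were 4.03% ± 0.590 in Hydrated, 2.43% ± 0.472 in Dry and 4.68% ± 1.28 in Rehydrated. In this share neither Dry library reached any Hydrated or Rehydrated library. With 2 libraries a stage, the smallest two-sided p of an exact permutation test is 0.333, and none was run. The other 1831 genes with the count minimum held 81.3% ± 0.539 of the counts in Hydrated and 92.8% ± 0.0914 in Dry.

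Few genes were level on both scales. Under library totals 159 genes met the fold limit, and the 17 shared genes were 16.8% of the steady genes and 10.7% of those 159. Of the 17, 15 had their highest signal in Dry. The factors implied by the deposited signal were lowest in the Dry libraries, so a gene level in CPM is raised there in the signal. This count, and the number of steady genes not level in CPM, thus follow largely from the difference between the 2 scales. TRINITY_DN185357_c4_g1 was the most level of them under library totals, with a ratio of 1.21 there and 1.89 in the signal. It stood at 70.9 and 81.5 CPM in Hydrated, 88.3 and 60.3 in Early, 77.4 and 63.8 in Late, 79.1 and 46.4 in Dry, and 88.4 and 61.7 in Rehydrated. The stages overlapped fully in CPM, whereas in the signal it stood at 27.9 ± 7.95 in Hydrated and 52.7 ± 16.7 in Dry. Its length implied by counts per unit of signal differed between stages by 1.48 times. TRINITY_DN79082_c0_g2 had a ratio of 1.63 in CPM, with 730 ± 12.2 in Hydrated, 513 ± 42.2 in Dry and 835 ± 67.8 in Rehydrated, but each of its 10 counts was not whole. TRINITY_DN179923_c0_g1 was the only gene below 2 both over the 10 single libraries of the signal and over stage means of CPM, at 1.99 in the latter. In CPM it stood at 102 ± 15.8 in Hydrated and 51.2 ± 11.2 in Dry, without overlap of the libraries.

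Among the steady genes, 18 held at least 5000 counts, a division made after the values were seen. They included the 4 with the highest mean signal. TRINITY_DN19915_c0_g1, the most abundant per length at a mean signal of 2481, stood at 2105 and 1527 in Hydrated, 1834 and 3107 in Early, 1752 and 2867 in Late, 3053 and 4199 in Dry, and 1612 and 2753 in Rehydrated. Its ratio of 1.997 was the nearest to the limit. Replicate 2 was higher in each stage except Hydrated. TRINITY_DN181028_c15_g2 stood at 1585 and 1275 in Hydrated, 1874 and 2407 in Early, 2123 and 3044 in Late, 2435 and 3070 in Dry, and 1022 and 2009 in Rehydrated. The replicates were ordered as in the first gene. In CPM it was nearly flat outside Dry, where the mean was 3619 ± 471. The Hydrated mean was 4781 ± 394 and the Early mean 5067 ± 125, followed by 5448 ± 111 for Late and 5569 ± 751 for Rehydrated. TRINITY_DN248572_c0_g1 had the lowest ratio of the 4, at 1.51, with 693 ± 4.29 in Hydrated and 1046 ± 312 in Dry. Its 2 Late libraries stood at 423 and 1122, farther apart than any pair of stage means. TRINITY_DN170631_c3_g2 likewise stood at 316 and 981 in the Rehydrated libraries, and its single libraries spanned a ratio of 4.802. TRINITY_DN157708_c1_g1, with the largest sum of counts, 72479, spanned 5.16 over single libraries and 1.42 over stage means of CPM.

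All 18 abundant genes were higher in replicate 2 than in replicate 1 in the Late, Dry and Rehydrated stages, and lower in Hydrated. In Early 12 of the 18 were higher in replicate 2. The median ratio of replicate 2 to replicate 1 was 2.55 in Late, 1.74 in Dry and 3.002 in Rehydrated, against 1.29 in Early and 0.736 in Hydrated. None of the 18 stayed below 2 over single libraries, and their median ratio was 4.06, against 2.46 for the 83 steady genes with fewer counts. In these 83 the ratio of replicate 2 to replicate 1 was 0.984 in Late and 0.698 in Dry, and 1.43 in Rehydrated. The other 327 genes with at least 5000 counts had ratios of 1.23 in Late and 1.04 in Dry, and of 1.99 in Rehydrated. Their ratios were 1.08 in Early and 0.899 in Hydrated. Of these 327, 69.7% were higher in replicate 2 in Late, 55.0% in Dry and 93.3% in Rehydrated. In Early 57.2% were, and in Hydrated 38.2%. The order in Rehydrated was thus shared by most abundant genes. With library totals the 18 genes were again all higher in replicate 2 in Late and Dry, and 17 were in Rehydrated, 8 in Early and 2 in Hydrated. Among the other 327 the shares were then 37.3% in Late, 45.6% in Dry, 67.9% in Rehydrated, 30.6% in Early and 46.5% in Hydrated. Counts were not whole in 11 of the 18, against 13 of the 83, and the part that shared reads had in these differences was not tested. Library totals differed between the same libraries, with 1162221 and 1880952 counts in Late and 644705 and 826632 in Rehydrated, and the part of depth was not tested.

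**Figure D5:**
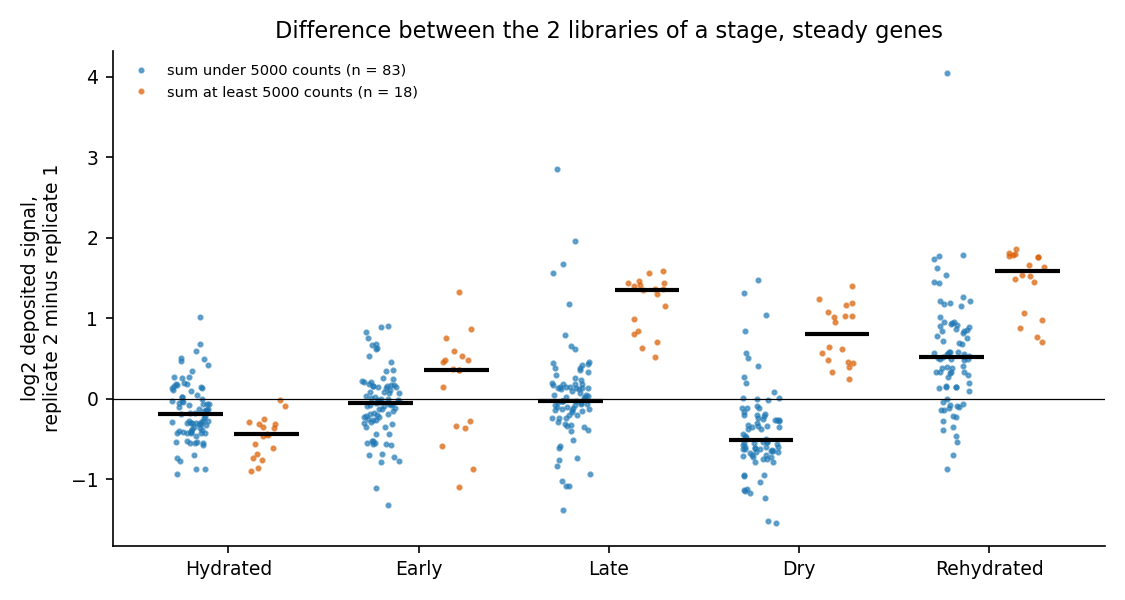
Log2 difference in deposited signal between replicate 2 and replicate 1 within each stage for the 18 steady genes with at least 5000 counts (orange) and the 83 with fewer (blue); points are genes, black bars medians, and 1 gene at 0 in Dry replicate 1 is left out there. All orange points lie above 0 in Late, Dry and Rehydrated and below 0 in Hydrated.

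In edgeR's quasi-likelihood F-test across the 5 stages, fitted on 9856 genes with recomputed TMM factors, 13 of the 101 steady genes passed an adjusted p of 0.05, against 58.8% of all genes tested and 88.9% of the 1932 with the count minimum. With library totals 61 passed, against 78.7% and 86.6%. The choice used the same stage means, so nothing further is read from these counts. The 13 varied with the library left out. Each such fit leaves 1 library in a stage, so its calls are not counted here. In Dry vs Hydrated of that fit, 23 steady genes were higher in Dry (20.4% of all genes tested) and 0 were lower (24.1%). Of the 1932 genes, 45.7% were called higher and 29.97% lower. Of the steady genes, 0 were lower at an unadjusted p of 0.05. DESeq2 called 22 higher and 0 lower, against 34.3% of all genes tested called in either direction. With limma on the deposited signal 1 was called in each direction, against 48.6% of all genes with 1 added and 42.7% with 0.1 added. The calls in this contrast also varied with the library left out.

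The recomputed factors were not those of the deposited table. They were 0.471 and 0.403 for the Dry libraries, whereas the deposited signal implied 0.548 and 0.517, and the steady genes' median log2 ratio of Dry to Hydrated was 0.57 with the former and 0.15 in the deposited signal. With library totals in the same edgeR fit, 63 steady genes were lower in Dry (58.2% of all genes tested) and 0 higher (6.32%), also at an unadjusted p of 0.05. In Rehydrated vs Dry, 76 were then higher (59.6%) and 0 lower (2.24%, and 0 unadjusted). Under TMM 0 were higher there (7.23%, with 2 at an unadjusted p of 0.05 and 0 in DESeq2) and 6 were lower (13.5%). Among the 1932 genes with the count minimum, library totals gave 49.6% lower in Dry vs Hydrated and 46.3% higher in Rehydrated vs Dry, and TMM gave 42.1% lower in the latter. The directions of the steady genes' calls under library totals are largely fixed by their choice in the signal, so nothing further is read from them.

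The steady genes were also set beside the other 1831 in features that are no criterion themselves but come from the same counts and signal, so they are not independent of the choice. Their median relative length, taken from counts per unit of signal and set to 1 at the median of all 1932, was 1.22 (quartiles 0.860 and 1.66), against 0.982 (0.640 and 1.42) for the others. Their median signal was 46.2, against 70.7. Counts were not whole in some library for 24 of the 101 (23.8%) and 423 of the others (23.1%). A count of 0 in some library occurred in 1 steady gene (0.990%) and in 65 others (3.55%). None of these differences was tested. The lowest count in any library had a median of 44 among the steady genes and 22 among the others. It was under 20 in 867 of the others and in 7 steady genes, so that counting error alone is not small for these 7.

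Identifiers that share the number after DN come from 1 cluster of the assembly and can be related sequences. The 101 genes carried 97 such numbers, and 4 numbers occurred in 2 genes each. TRINITY_DN181028_c15_g2 and TRINITY_DN181028_c15_g3 had ratios of 1.92 and 1.83, and both were highest in Dry and lowest in Hydrated, at mean signals of 2085 and 538. TRINITY_DN177357_c7_g1 and TRINITY_DN177357_c6_g1 had ratios of 1.77 and 1.71 in the signal and 1.83 and 1.82 in CPM. Their signals were 99.0 and 141 in Hydrated and 174 and 241 in Dry, so the pair kept nearly the same proportion. TRINITY_DN182627_c3_g3 and TRINITY_DN182627_c4_g1 were both highest in Late and lowest in Rehydrated. TRINITY_DN162954_c8_g1 and TRINITY_DN162954_c13_g1 differed, with 382 and 233 in Rehydrated, the lowest stage of the former and the highest of the latter.

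At the edges of the criteria the values passed without a step. TRINITY_DN183923_c4_g1, the next gene inside the fold limit after TRINITY_DN19915_c0_g1, had a ratio of 1.99, from 67.1 ± 10.9 in Rehydrated to 134 ± 16.8 in Early. Just outside it, TRINITY_DN182427_c5_g2 and TRINITY_DN186896_c11_g12 had ratios of 2.001 and 2.004 and were both highest in Rehydrated, at 74.7 ± 22.7 and 58.3 ± 10.4. At the count minimum, TRINITY_DN185752_c1_g2 and TRINITY_DN184769_c2_g2 were included with sums of 502 and 507 and ratios of 1.69 and 1.397. TRINITY_DN180182_c7_g1 and TRINITY_DN173253_c9_g1, with sums of 499 and 491 and ratios of 1.99 and 1.72, were not.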

How the data were processed

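RNA was sequenced from 10 libraries in 5 stages with 2 libraries each. Stages follow the stage labels and replicate numbers the titles, and columns were assigned by the replicate number and time code that they share with 1 title each. The tables hold 20783 genes: unnormalized expected counts deposited by the authors, and their deposited signal, TMM-normalized and corrected for gene length, with no source that says whether TPM or FPKM preceded TMM. Ribosomal RNA was removed with standard and custom oligos, per the labels' protocols. The tools named per the submitters' processing notes are Trimmomatic 0.35, RSEM 1.2.28, Bowtie2 2.2, CASAVA 1.4 and DESeq2, with no role or order. How the assembly was made and plant genes selected is not stated in the labels.

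Stage means of the deposited signal and of CPM (expected counts over the library total of the deposited table) were taken over 2 libraries. Counts were rounded and tested with edgeR 4.0.16 (R 4.3.3; filterByExpr minimum count 10, 9856 genes, TMM, quasi-likelihood test, 1 term per stage, 5 residual degrees of freedom, Benjamini-Hochberg over all genes at 0.05). DESeq2 1.42.0 and limma 3.58.1 (on log2 of the signal plus 1 or 0.1) were alternatives, beside other scalings, fold limits, count minimums and leaving out each library. Implied factors of the deposited signal are medians of CPM over signal among genes with at least 500 counts, scaled to a geometric mean of 1. Values were called whole within 1e-06. Where replicates are not said to be separate cultures, p-values reflect only library-to-library spread, possibly technical.

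Genes named are the 4 most abundant, the 4 steadiest over stages, 2 over single libraries and 4 under library totals, and 2 on each side of both limits; exceptions are marked. The members, lists and alternatives were chosen with earlier results of these data known. Gene lists by function could not be matched to any identifier, so none was counted.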

Additional observations from a re-analysis of the deposited data

How the results depend on the processing

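The number of steady genes was 22 and 345 with limits of 1.5 and 3 times, and 680, 258, 52 and 29 with no count minimum or minimums of 200, 1000 and 2000. It was 159 with library totals, 10 over single libraries and 62 in replicate 1 alone. With edgeR TMM, DESeq2 size factors and upper quartile factors, none length-corrected, 83, 84 and 90 genes met the limit, of which 61, 59 and 57 were among the 101. In 2 settings added after the data were seen, the factors implied by the deposited signal without gene length gave 100 genes, 89 of them among the 101, and 77 of the 101 had whole counts throughout. Leaving out a library, with the count minimum applied to the libraries kept, gave 66 to 104 steady genes. It gave 14 to 26 genes below 2 times under library totals, against 17 of the 101. The count called among the stages was 61 with library totals, 3 without a filter on low counts and 0 with limma at either addend, and leaving out a library gave 2 to 28. Calls in Dry vs Hydrated numbered 63 with library totals, all in the opposite direction, 6 without a filter and 2 with limma at either addend, and leaving out a library gave 5 to 32. The median log2 ratio of Dry to Hydrated, -1.22 under library totals (-1.41 to -1.13 without 1 library), was 0.57, 0.63, 0.59 and 0.15 with edgeR TMM, DESeq2 size factors, upper quartile and the deposited signal. By construction these settings differ only in library factors and, for the signal, gene length. As a share of deposited signal in place of counts, the steady genes held 2.06%, 1.74%, 1.501%, 1.08% and 1.99% in Hydrated, Early, Late, Dry and Rehydrated. The cause of the other changes was not tested.

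With the replicate block, 20 steady genes were called among the stages (59.6% of all genes tested) and 26 in Dry vs Hydrated (45.3%). The labels do not say that a number marks a shared culture, so the numbers were not taken as pairs. Deviations of same-numbered libraries correlated between -0.08 and 0.16 over the 10 pairs of stages. With no known pairing to compare with, these values cannot decide whether same-numbered libraries share a culture.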
